A study of Homo sapiens with 4 samples.

Results

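Chromatin around 9 genes whose products fold, assemble and turn over the sarcomere was compared between control and SKP2-depleted rhabdomyosarcoma cells: the chaperones and assembly factors UNC45B, SMYD1, KLHL41, KLHL40, HSPB1 and CRYAB and the ubiquitin ligases TRIM63, TRIM54 and TRIM55. The 9 genes were chosen by name, for their role, out of 20007 protein-coding genes, with earlier results of these data known. The domain of a gene was its body with 10 kb on each side (GENCODE release 44, hg38), and every peak overlapping it by at least 1 bp was taken, which gave 13 and 18 H3K27ac peaks and 9 and 11 MYOD peaks in control and SKP2-depleted cells. The members' domains had a median length of 37.1 kb, between 21.6 kb at HSPB1 and 68.6 kb at TRIM55, against 47.5 kb over all genes.

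The cells were RD, an established human line from a rhabdomyosarcoma that lacks a PAX-FOXO1 fusion (FN-RMS), a childhood tumor with features of arrested skeletal muscle. Cells labelled shSCR, the controls, received a non-targeting shRNA in a lentiviral vector, and cells labelled shSKP2 a single shRNA against SKP2, the substrate-recognition subunit of an SCF ubiquitin ligase. Both were grown in medium with serum and, according to the study's methods, infected in the presence of polybrene and selected with puromycin, and the time from infection to fixation is not given in the sources used here. Chromatin immunoprecipitation followed by sequencing (ChIP-seq) was done for MYOD and for acetylated lysine 27 of histone H3 (H3K27ac), with 1 library per antibody and condition, so the comparisons below set single libraries of 1 cell line and 1 shRNA side by side and carry no test.

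Sarcomeres are built from thick myosin and thin actin filaments, and their proteins need help to fold and assemble. UNC45B is the muscle chaperone that folds the myosin head together with HSP90, and SMYD1 is a muscle-restricted SET and MYND domain protein needed for thick filament assembly. KLHL40 and KLHL41 are Kelch proteins that stabilize thin filament proteins such as nebulin, HSPB1 and CRYAB are small heat shock proteins that protect filaments under stress, and TRIM63, TRIM55 and TRIM54 (MuRF1, MuRF2 and MuRF3) are RING-type ubiquitin ligases bound to the sarcomere. MYOD is the basic helix-loop-helix factor that directs muscle differentiation through E-boxes, and H3K27ac marks active promoters and enhancers.

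To show where MYOD sat at these genes, the hg38 plus strand is printed 5′ to 3′ around 8 of the bound sites, chosen to show the promoter and distal sites of SMYD1, the Kelch genes and the small heat shock genes. The first 6 sequences run 60 bases to each side of the summit in shSCR cells, and the last 2 are 30-base stretches around the E-box, since those summits lie in or beside a 5′ UTR. Capitals mark every match to CANNTG, the general E-box, which includes the CAGCTG core preferred by MYOD.
SMYD1 promoter, chr2:88067385-88067505, summit at −380 bp from the start site: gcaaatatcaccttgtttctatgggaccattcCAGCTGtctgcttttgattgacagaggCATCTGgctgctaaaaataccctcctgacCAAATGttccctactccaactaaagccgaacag
KLHL41 upstream site, chr2:169507886-169508006, summit at −1756 bp: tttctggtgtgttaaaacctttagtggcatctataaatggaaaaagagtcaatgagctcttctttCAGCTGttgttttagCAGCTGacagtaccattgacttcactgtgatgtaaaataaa
KLHL41 promoter, chr2:169509508-169509628, summit at −134 bp: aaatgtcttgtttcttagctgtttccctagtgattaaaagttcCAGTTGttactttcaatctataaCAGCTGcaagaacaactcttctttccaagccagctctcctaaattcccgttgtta
KLHL41 intron 1, chr2:169514059-169514179, summit at +4417 bp: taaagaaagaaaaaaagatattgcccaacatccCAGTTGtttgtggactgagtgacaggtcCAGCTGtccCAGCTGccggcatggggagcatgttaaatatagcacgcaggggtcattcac
HSPB1 near site, chr7:76307200-76307320, summit at +4587 bp: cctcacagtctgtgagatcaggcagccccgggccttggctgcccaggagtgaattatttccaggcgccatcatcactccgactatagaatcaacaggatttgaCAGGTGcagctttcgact
HSPB1 far site, chr7:76310841-76310961, summit at +8228 bp: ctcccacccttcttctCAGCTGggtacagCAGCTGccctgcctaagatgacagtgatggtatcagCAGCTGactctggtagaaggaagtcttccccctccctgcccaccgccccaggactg
KLHL40 start site, chr3:42685516-42685545: gcccctcgaagaCAGCTGctcagtctaagc
CRYAB distal site, chr11:111918932-111918961: gatgcataaaaaCAGCTGggctcccttgga

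The 3 KLHL41 sites, the far HSPB1 site and the KLHL40 and CRYAB sites each hold CAGCTG in the printed stretch, as does the SMYD1 promoter, whereas the only capitals of the near HSPB1 site are CAGGTG. Within 100 bp of the summit, CAGCTG was found at 7 of the 9 member MYOD peaks of shSCR cells and at 8 of the 11 of shSKP2 cells. CAGGTG, searched on both strands, was found at 2 peaks of each list, and CANNTG, which includes both, at all of them. The same windows of all MYOD peaks held CAGCTG in 64.3% (shSCR) and 60.7% (shSKP2) of cases and CAGGTG in 41.7% and 45.1%, whereas windows of equal size 2 kb away held CAGCTG in 9.06% and 8.93% and CAGGTG in 20.7% and 20.6%. CANNTG is common: 94.9% and 93.5% of summit windows held it, and 66.7% and 66.1% of windows 2 kb away.

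A match to a MEF2-type motif, a search chosen after the sequences were seen, lay within 100 bp of the summits at the KLHL41 promoter, at KLHL41 intron 1 and at the KLHL40 start site. It was found in 1.98% and 1.96% of the windows of all MYOD peaks and in 3.84% and 4.03% of the windows 2 kb away. Promoter sequences from RefSeq (GRCh38.p14, 250 bases before to 50 after the start) matched 6 of the 9 members. CAGCTG occurred 2 times in the KLHL40 promoter and 1 time each in those of KLHL41, TRIM63 and TRIM54, and was not found in those of SMYD1 and HSPB1. Of 27305 RefSeq promoters 17.7% held it, so TRIM63 and TRIM54, which had no MYOD peak, carried the same letters as KLHL41.

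The lists as a whole set the scale for what follows. They held 25356 (shSCR) and 38457 (shSKP2) H3K27ac peaks, and 5814 and 8457 MYOD peaks. Read totals were not used here, so depth was read from the lowest background of each list, which in shSKP2 was 0.920 times the shSCR value for H3K27ac and 1.31 times for MYOD. Markers did not separate muscle from other lineages by H3K27ac cover, whereas MYOD peaks separated all but MYF5. In both conditions MYOD peaks lay at MYOD1, MYOG, DES, CHRNA1 and PAX7, and none at MYF5 or the other-lineage markers. In shSCR cells H3K27ac covered 0.758 kb at MYOD1, 0.876 kb at MYOG, 2.84 kb at CHRNA1 and 1.71 kb at PAX7, and none at DES or MYF5. In shSKP2 cells it covered 1.349 kb at MYOD1, 3.106 kb at MYOG, 3.786 kb at CHRNA1 and 1.496 kb at PAX7. MYF5 then had 1.07 kb and DES again none. Of the other-lineage markers, ALB and PECAM1 had no peak, whereas CDH1 (0.396 and 1.00 kb) and PTPRC (1.02 and 1.72 kb) were covered by H3K27ac in shSCR and shSKP2 cells.

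In shSKP2 cells H3K27ac covered more of the domains of 6 of the 9 members and less of 1, against 66.8% and 3.92% of all 20007 genes. The 2 members without H3K27ac in either condition, TRIM63 and TRIM54, stand beside 29.2% of genes. Cover was at least 1.5-fold higher at 5 members (SMYD1, KLHL40, HSPB1, CRYAB and TRIM55), while 51.1% of all genes passed the same fold, and it was lower by that fold at 0 members against 1.26% of genes. The share of members with more H3K27ac was therefore near that of genes at large. With the gene body alone, or with only peaks nearest to the member's own start site, 3 members passed. KLHL40 and CRYAB were covered in shSKP2 cells alone, as were 10.6% of all genes. Among the 5 members covered in both conditions the median ratio was 2.07, against 1.82 over 11919 genes. Summed over the 9 domains, H3K27ac covered 5.573 kb in shSCR and 11.052 kb in shSKP2 cells.

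**Figure D1:**
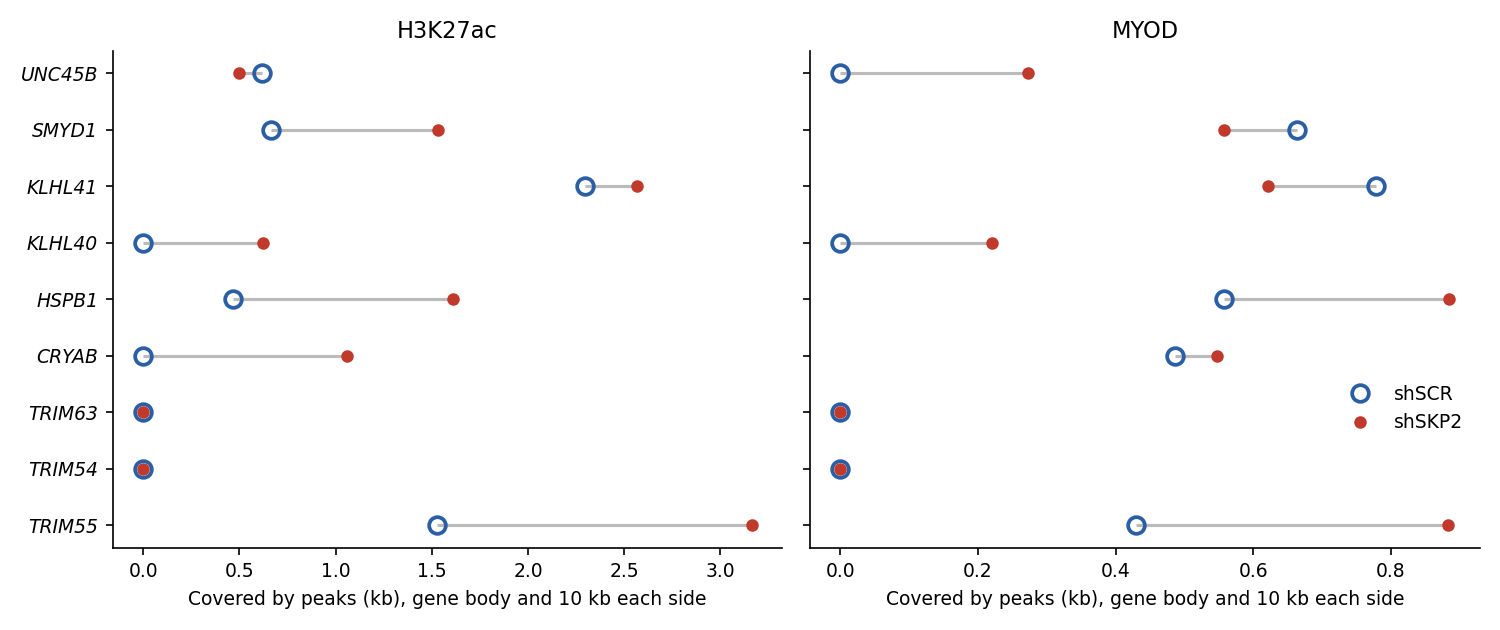
Length covered by H3K27ac peaks (left) and MYOD peaks (right) in the domain of each gene (horizontal axes, kb; 1 point per library, 1 library per condition, a line joining the conditions). In the H3K27ac panel TRIM55 stands at 1.526 kb in shSCR and 3.164 kb in shSKP2 cells, and KLHL40 and CRYAB are at 0 in shSCR cells only. In the MYOD panel UNC45B and KLHL40 are at 0 in shSCR cells only. TRIM63 and TRIM54 are at 0 in both conditions in each panel.

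MYOD peaks lay in the domains of 5 of the 9 members in shSCR cells and 7 in shSKP2 cells, where 21.9% and 30.6% of all genes had one. UNC45B and KLHL40 had one only upon SKP2 depletion. Their −log10 p was 8.41 and 6.22, and with peaks of −log10 p of at least 10 the count was 5 members in both conditions. MYOD cover was at least 1.5-fold higher at 4 members (UNC45B, KLHL40, HSPB1 and TRIM55) against 19.1% of genes, and lower at 0 against 5.95%. At TRIM55 the shSKP2 cover of 883 bp included 444 bp over the neighbouring gene CRH. At UNC45B it was 1 peak nearest to the start site of NLE1, and at HSPB1 the same sites had wider peaks. The 2 members with no peak of any list, TRIM63 and TRIM54, stand beside 27.1% of all genes without one. In sum MYOD covered 2.915 kb in shSCR and 3.99 kb in shSKP2 cells.

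Positions were largely shared. All 13 H3K27ac peaks of shSCR cells were overlapped by a shSKP2 peak (100%, 95% Wilson interval 77.2 to 100), against 86.4% over the whole list. Of the 18 shSKP2 peaks 11 were overlapped in return (61.1%, 38.6 to 79.7, against 51.4%), and the 7 others lay at KLHL40, HSPB1, CRYAB and TRIM55. For MYOD, 8 of 9 shSCR peaks (88.9%, 56.5 to 98.0, against 64.1%) and 8 of 11 shSKP2 peaks (72.7%, 43.4 to 90.3, against 44.1%) were shared. These intervals, and those given for counts below, cover counting error only, and peaks of 1 gene are not independent of each other.

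**Figure D2:**
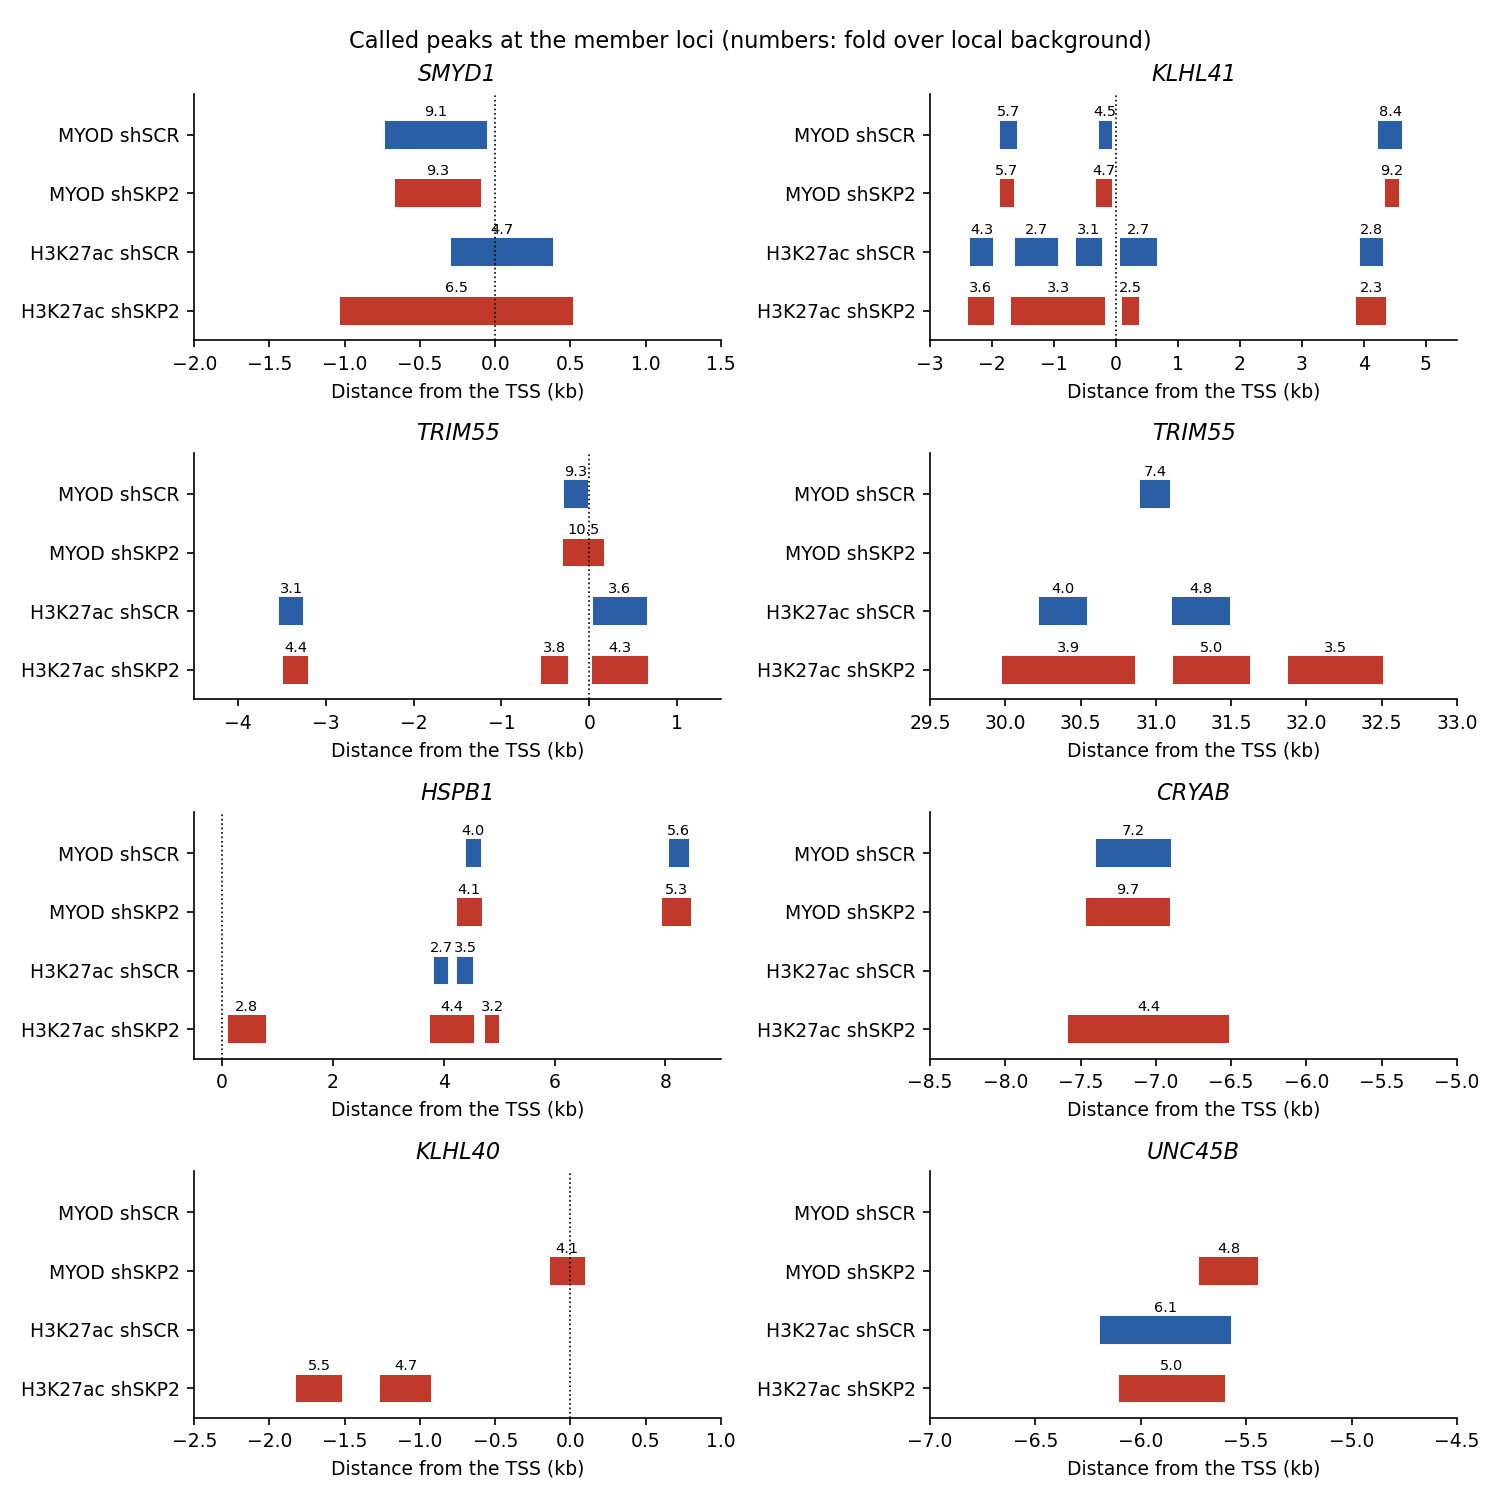
Peaks of the 4 lists around each of the 7 genes that had any (horizontal axis, kb from the transcription start site along the gene's direction; bars are peaks, labelled with the deposited fold enrichment). The control bars of H3K27ac all have a shSKP2 counterpart, and KLHL40 has bars in shSKP2 cells alone. The TRIM55 promoter and intron 9 have a panel each, and the peak over CRH in its domain is not drawn.

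Among the thick filament factors, SMYD1 (chr2:88067825-88113384, plus strand, ENSG00000115593.15) had the highest H3K27ac ratio of the members' shared peaks, at its own promoter. The single H3K27ac peak widened from 665 bp in shSCR cells (chr2:88067540-88068204) to 1534 bp in shSKP2 cells (chr2:88066803-88068336). Its deposited fold enrichment over local background went from 4.73 to 6.48 and its −log10 p from 10.2 to 31.3. The summit lay at −208 bp from the start site in shSCR and at −703 bp in shSKP2 cells, the latter upstream of the whole shSCR peak. At these summits, 495 bp apart, 21 fragments in shSCR and 61 in shSKP2 cells were piled up. Each peak list gives the fold and p at the summit, from which this whole number of stacked fragments follows. The MYOD peak printed above, in contrast, was alike in both conditions, with folds of 9.12 and 9.33, widths of 664 and 558 bp, and pileups of 33 and 43 fragments. Scaled by the lowest background of each list, the pileup ratio shSKP2 over shSCR was 3.16 for H3K27ac (exact 95% interval from counting 1.89 to 5.46) and 0.996 for MYOD (0.618 to 1.62). Within the gene body alone the H3K27ac cover was 380 and 512 bp, a ratio of 1.35. H3K27ac overlapped 222 bp of the MYOD site in shSCR cells, from its downstream side, and 664 bp in shSKP2 cells, with acetylation on both sides of it.

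UNC45B (chr17:35147817-35189345, plus strand, ENSG00000141161.12) had no peak at its promoter or in its body in any list. Its domain was reached by 1 H3K27ac peak with its summit at −5.79 kb (shSCR) and −5.92 kb (shSKP2) from the start site, in coding exon 2 of the neighbouring gene NLE1 in shSCR cells (chr17:35141626-35142242, fold 6.09, 21 fragments) and in NLE1 intron 2 in shSKP2 cells (chr17:35141717-35142212, fold 4.97, 17 fragments). The scaled pileup ratio of 0.880 had an interval from 0.436 to 1.75, and at a −log10 p of at least 10 only the shSCR peak remained. At the edge of this region a MYOD peak was listed in shSKP2 cells alone (chr17:35142098-35142370, fold 4.81, 15 fragments, −log10 p 8.41). This summit had no CAGCTG or CAGGTG within 100 bp, and the nearest MYOD peak of shSCR cells lay 83.7 kb from the gene. The closest start site to all these peaks is that of NLE1. The start site of SLC35G3 also lies in the domain.

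The Kelch genes differed from each other. KLHL41 (chr2:169509702-169526258, plus strand, ENSG00000239474.7), which lies inside an intron of the gene model ENSG00000251569, was the member most heavily marked in control cells, with 5 H3K27ac and 3 MYOD peaks. H3K27ac cover was 2297 bp in shSCR and 2564 bp in shSKP2 cells, and within the gene body alone the difference turned (−0.209 kb). With peaks of −log10 p of at least 10 it was 1295 and 2111 bp. In shSKP2 cells the nearer 2 of the 3 control peaks upstream of the start site were joined into 1 peak of 1475 bp (chr2:169508030-169509504), and the peak over the coding part of exon 1 narrowed from 569 to 246 bp. The summit pileups of the overlapping shSKP2 peaks were nevertheless higher for all 5 shSCR peaks. They were 69 and 113 fragments at the most upstream peak. At the 2 joined peaks they were 47 and 58 against 120, with the shSKP2 summit 473 and 217 bp away. Over exon 1 they were 51 and 92, and in intron 1 42 and 63. Folds went the other way at 3 of the 5, for instance from 4.26 to 3.59 at the first, and the local background at these summits was 14.4 to 17.9 fragments in shSCR and 26.3 to 36.8 in shSKP2 cells. The MYOD counts of KLHL41 were within counting error of each other, with pileups of 43 and 40 at the upstream site, 45 and 43 at the promoter and 75 and 72 in intron 1. The intron 1 site, with folds of 8.40 and 9.20, was the strongest MYOD peak among the members in both lists, above 95.1% and 95.5% of all peaks by p. H3K27ac flanked the upstream and promoter sites on both sides in both conditions.

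KLHL40 (chr3:42685537-42692544, plus strand, ENSG00000157119.12) was the member whose peaks were listed upon SKP2 depletion only. In shSKP2 cells 2 H3K27ac peaks had summits at −1.64 kb (chr3:42683723-42684013, fold 5.47, 18 fragments) and −1.08 kb (chr3:42684277-42684606, fold 4.73, 15 fragments). A MYOD peak (chr3:42685406-42685626, fold 4.06, 12 fragments) had its summit at the start site itself, in the 5′ UTR of exon 1. The MYOD peak was low in its list, its −log10 p of 6.22 exceeding that of 15.0% of the shSKP2 MYOD peaks, whereas the H3K27ac peaks exceeded 47.1% and 30.3% of theirs. In shSCR cells the nearest H3K27ac and MYOD peaks lay 32.4 and 32.9 kb from the gene, which shows that the threshold was not reached and not that nothing was bound. H3K27ac did not reach the MYOD site in shSKP2 cells, ending 800 bp before it. Of these peaks, only the more distant H3K27ac peak had a −log10 p of at least 10.

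Of the small heat shock genes, HSPB1 (chr7:76302673-76304295, plus strand, ENSG00000106211.10) was marked downstream in control cells and also within the gene in shSKP2 cells. The 2 control H3K27ac peaks (chr7:76306516-76306734 and chr7:76306939-76307187, 219 and 249 bp, 21 and 27 fragments) were joined in shSKP2 cells into 1 of 756 bp with 40 fragments. Another 2 peaks were listed in shSKP2 cells alone, 1 with its summit in intron 1 (chr7:76302798-76303442, fold 2.77, 24 fragments) and 1 with its summit at +4.87 kb (chr7:76307437-76307647, fold 3.17, 28 fragments). The intron 1 peak was low in its list, its −log10 p of 5.90 exceeding that of 8.47% of peaks. Total cover was 468 bp in shSCR and 1612 bp in shSKP2 cells, a ratio of 3.44 and the highest among members covered in both conditions. With lists of equal length the cover was 468 and 756 bp, a ratio of 1.62, below those of SMYD1 (2.31) and TRIM55 (2.07). MYOD was listed at the near and far sites in both conditions, with 24 and 28 fragments at the near site and 36 and 38 at the far site. MYOD cover was 1.59-fold higher (557 and 885 bp) through wider peaks, 237 to 410 bp and 320 to 475 bp, with folds of 4.00 and 4.14 at the near site and 5.62 and 5.34 at the far site. The near site, with its CAGGTG, was overlapped by H3K27ac in both conditions, whereas the far site, with 3 copies of CAGCTG, stood 3450 bp (shSCR) and 2990 bp (shSKP2) from the nearest H3K27ac peak.

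CRYAB (chr11:111908564-111923722, minus strand, ENSG00000109846.9) had its only bound region upstream of the canonical start site at position 111911770, with the MYOD summit of shSCR cells at −7.16 kb. This region lies inside the annotated gene but outside its canonical transcript. With the gene body alone, the H3K27ac cover of 1061 bp in shSKP2 cells was therefore unchanged. MYOD was listed there in both conditions (chr11:111918676-111919162 in shSCR, chr11:111918681-111919228 in shSKP2), with folds of 7.17 and 9.70 and pileups of 27 and 45 fragments. H3K27ac was listed over it in shSKP2 cells alone, as a peak of 1061 bp (chr11:111918289-111919349, fold 4.40, 16 fragments, −log10 p 7.96), and the nearest H3K27ac peak of shSCR cells lay 38.8 kb away. With peaks of −log10 p of at least 10 alone, or with lists of equal length, CRYAB had no H3K27ac. Its site was the only MYOD site of the members overlapped by H3K27ac in shSKP2 and not in shSCR cells. The scaled MYOD pileup ratio of 1.27 was the highest among the members, with an interval of 0.773 to 2.13. The site lies at the first exon of C11orf52, whose start site is nearer than that of CRYAB, and HSPB2, the small heat shock gene paired head to head with CRYAB, and the read-through model HSPB2-C11orf52 share the domain, so the peaks cannot be assigned to CRYAB alone.

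Of the 3 MuRF genes only TRIM55 had peaks. TRIM63 (chr1:26051301-26068436, minus strand, ENSG00000158022.7) had no peak in any list. Its nearest H3K27ac peak lay 43.5 kb (shSCR) and 42.2 kb (shSKP2) away and its nearest MYOD peak 29.8 and 29.7 kb. TRIM54 (chr2:27282429-27307439, plus strand, ENSG00000138100.14) also had none, with H3K27ac at 15.7 and 13.9 kb and MYOD at 62.5 and 62.9 kb. The start sites of SLC30A2 in the TRIM63 domain and of DNAJC5G and UCN in the TRIM54 domain were thus without a peak as well.

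TRIM55 (ENSG00000147573.17), the third MuRF gene, held the widest H3K27ac cover of the members in shSKP2 cells, 3164 bp against 1526 bp in shSCR cells. Its promoter MYOD peak, centred 115 bp upstream of the canonical start site in shSCR cells, had the highest MYOD fold of the members in both lists, 9.34 and 10.5, with 43 and 50 fragments. Its summit window held CAGGTG and no CAGCTG. H3K27ac in shSCR cells lay at −3.51 kb, over exon 1, and as a pair of peaks in intron 9 at +30.4 and +31.4 kb. All 4 were kept, with pileups of 21 and 41, 25 and 42, 25 and 43, and 30 and 55 fragments in shSCR and shSKP2 cells. In shSKP2 cells 2 more were listed, 289 bp wide just upstream of the promoter MYOD summit and 617 bp wide in intron 9. The intron 9 peaks lie nearer to the start site of CRH than to that of TRIM55. Counting only peaks nearest to the TRIM55 start site, H3K27ac covered 847 and 1174 bp, a ratio of 1.39 that no longer passes 1.5-fold. The promoter MYOD site had H3K27ac on both sides in shSKP2 cells.

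TRIM55 also had the only member MYOD peak of shSCR cells that was not shared, in intron 9 (185 bp, fold 7.37, 33 fragments, −log10 p 21.0). It sat in the gap between the pair of H3K27ac peaks, which remained in shSKP2 cells with higher pileups. A MYOD peak of shSKP2 cells alone (444 bp, fold 5.71, 19 fragments) lay in coding exon 2 of CRH, the corticotropin-releasing hormone gene downstream, and belongs to the TRIM55 domain only through its 10 kb margin.

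Each shSCR peak was compared with the overlapping shSKP2 peak of highest pileup, each at its own summit. H3K27ac pileups were higher in shSKP2 cells at 12 of the 13 shared peaks, the exception being the peak upstream of UNC45B. The paired summits lay from 11 bp (at KLHL41) to 495 bp (at SMYD1) apart, so the positions were not matched exactly. The scaled ratio ran from 0.880 at UNC45B to 3.16 at SMYD1 with a median of 1.96, and the counting interval lay above 1 at 11 of the 13. The 2 joined pairs at KLHL41 and HSPB1 use the same shSKP2 peak, so the 13 comparisons rest on 11 shSKP2 peaks. Over all 21910 shared H3K27ac peaks the median scaled ratio was 1.63, and the pileup was higher in 87.0%, so higher pileups were common to shared peaks across the genome. The deposited fold was higher in only 8 of the 13, and over all shared peaks its median ratio was 1.2. The shares of all shared peaks with an interval above 1, or with a higher fold, were not computed, so these 2 counts have no genome-wide value beside them.

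For MYOD the 8 shared member peaks had a median scaled ratio of 0.847, between 0.711 at the upstream KLHL41 site and 1.27 at CRYAB. Each counting interval included 1, and the share over all shared MYOD peaks was not computed. The median over all 3728 shared MYOD peaks was 0.891. Before scaling, the pileup was higher in shSKP2 cells at 5 of the 8 member peaks, and at 66.7% of all shared MYOD peaks. The deposited fold was higher in shSKP2 cells at 7 of the 8. Its median ratio over all shared MYOD peaks was 1.04, and the share of those peaks with a higher fold was not computed. Without scaling the member median was 1.11 and the median over all shared peaks 1.17, so the direction of the MYOD ratio turned with the scaling, whereas the H3K27ac median stayed above 1 (1.8 without scaling).

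**Figure D3:**
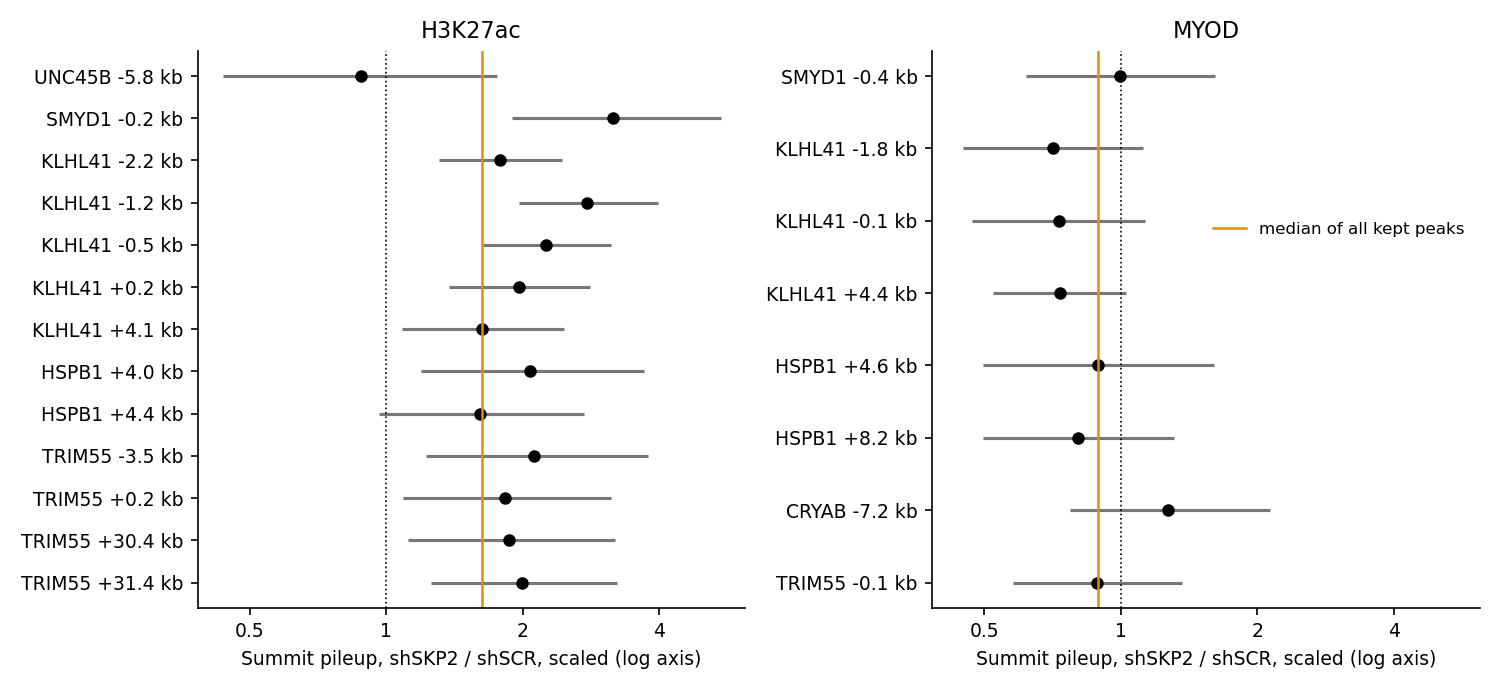
Ratio of summit pileup, shSKP2 over shSCR, at the shared peaks of the members (horizontal log axes, scaled by the lowest background of each library; points are single peaks, bars the exact 95% counting interval, the vertical lines mark 1 and the median of all shared peaks). For H3K27ac 12 of 13 points lie above 1, and for MYOD 7 of 8 lie below 1 with intervals that include it.

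The local background moved with H3K27ac itself. At the members' shared H3K27ac peaks the scaled background in shSKP2 cells was 1.09 to 2.55 times that of shSCR cells, highest at SMYD1, whereas at the shared MYOD peaks it was 0.659 to 1.04 times. Where a MYOD and an H3K27ac peak overlapped anywhere in the genome, the background of the H3K27ac peak, as a multiple of its list's lowest, had a median of 3.68 against 2.06 for the MYOD peak in shSCR cells and 3.89 against 1.64 in shSKP2 cells. The H3K27ac value was the higher of the pair in 90.0% and 92.0% of cases. A fold over such a background is smaller than the pileup ratio where both rise, as at KLHL41. What sets the background was not tested.

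The 12 MYOD sites of the members, merged over both lists, were overlapped by H3K27ac at 7 in shSCR cells (58.3%, Wilson interval 32.0 to 80.7) and 8 in shSKP2 cells (66.7%, 39.1 to 86.2). Over all 10538 MYOD sites the shares were 34.0% and 51.7%. H3K27ac within 500 bp on both sides of the site was found at 3 member sites in shSCR cells (25%) and 7 in shSKP2 cells (58.3%), against 20.3% and 38.3% of all sites. The 4 sites flanked in shSKP2 cells alone were those of SMYD1, the near HSPB1 site, CRYAB and the TRIM55 promoter, and the 3 flanked in both were the upstream and promoter sites of KLHL41 and the intron 9 site of TRIM55.

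A list of 38 other genes of sarcomere proteostasis and assembly, drawn up by function with earlier results of these data known, was read in the same way. H3K27ac cover was at least 1.5-fold higher in shSKP2 cells at 22 and lower at 0 (51.1% and 1.26% of all genes), 8 were not covered in either condition (29.2% of all genes), and the median ratio among the 25 covered in both conditions was 2.03. The share past 1.5-fold was near that of all genes. By any amount, cover was higher at 29 of the 38 and lower at 1, against 66.8% and 3.92% of all genes. By role, the 22 past 1.5-fold were 8 of 15 chaperones and cochaperones, 7 of 11 ubiquitin ligase and Kelch genes, and 7 of 12 filament assembly genes. The largest increases were at SYNPO2 (1.97 to 5.56 kb), which encodes an actin-binding Z-disc protein, and DAAM1 (2.11 to 4.70 kb), a formin that nucleates actin. The only decrease was at DNAJB6, a cochaperone, by 15 bp (2.087 to 2.072 kb). MYOD peaks lay in 8 of the 38 domains in shSCR and 14 in shSKP2 cells (21.9% and 30.6% of all genes). MYOD cover increased most at FBXO32, the muscle ubiquitin ligase subunit atrogin-1 (0 to 751 bp), and SYNPO2 (0 to 738 bp), and decreased most at CAPZB, an actin capping subunit (328 to 0 bp), and STUB1, a chaperone-bound ligase (193 to 0 bp).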

How the data were processed

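Peak lists of 4 ChIP-seq libraries were analysed, 1 per antibody and condition, grouped by sample title. According to the study's methods, chromatin cut with micrococcal nuclease was immunoprecipitated with Drosophila spike-in chromatin. The authors aligned reads with BWA (0.7.17) to GRCh38, called narrow peaks per library with MACS3 against input, and removed excluded regions. Whether spike-in scaling entered the calls is not given in the sources used here. The methods state a threshold equal to a −log10 p of 5, while the files reach down to 4.00, with 2.41 to 4.13% of peaks below 5.

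For each peak the authors deposited the fold enrichment (a ratio over local background), the −log10 p-value and q-value, and a score of 10 times the −log10 p. From the fold and p, taken as (x + 1) over (background + 1) and as a Poisson tail, the whole-number pileup x was recovered within 0.001 in −log10 p for all peaks but 1. Only the autosomes, X and Y were used, so 1 peak of each H3K27ac list dropped out. Shared peaks overlap a peak of the other list by 1 bp or more. Cover is the merged peak length in a domain, counted as higher or lower at 1.5-fold, and a domain covered in only 1 list counts as past the fold. Pileup ratios were divided by the ratio of the lists' lowest backgrounds, and their intervals are exact binomial (Clopper-Pearson) intervals, converted to ratios. The authors' stated peak calling options kept duplicate reads, so the fragments may not be independent counts and the intervals may be too narrow.

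Named genes were all members, genes with a start site in a member domain and, of the other assembly genes, those with the 2 largest increases and decreases per antibody. The members and lists were chosen with earlier results of these data known. Alternatives were other thresholds, equal list lengths, other domains, nearest start sites and a stricter overlap. Python 3.11.15, pandas 2.3.3 and scipy 1.17.1 were used, and the code was tested on simulated data.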

Additional observations from a re-analysis of the deposited data

How the results depend on the processing

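No paired analysis was possible because each condition had 1 library per antibody, and for the same reason no replicate could be left out. Under the alternatives, 46 values of the main results stayed within their limits, 21 moved and 1 turned in direction, and for single members these were 35, 18 and 1. Totals of peaks and sites differ between settings, so a count below is not a share of the main total. With peaks of −log10 p of at least 10 only, 1 member had lower H3K27ac cover (UNC45B, by 0.617 kb). Of the 6 shSCR H3K27ac peaks left there, 5 were kept. H3K27ac overlapped 2 (shSCR) and 5 (shSKP2) of the 10 MYOD sites left. With lists of equal length, 3 H3K27ac peaks were in shSKP2 alone. Both settings left CRYAB with no H3K27ac. With the gene body alone, cover was higher at 3 members and KLHL41 turned in direction (−0.209 kb). In that setting 6 H3K27ac and 3 MYOD peaks were kept, and 3 H3K27ac peaks and 1 MYOD peak were in shSKP2 alone. A MYOD peak lay at 3 (shSCR) and 4 (shSKP2) members, and 2 and 3 of the 5 MYOD sites left were overlapped. With 25 kb on each side, 21 H3K27ac peaks were kept, 12 H3K27ac and 5 MYOD peaks were in shSKP2 alone, and TRIM54 gained 0.571 kb. With only peaks nearest to the member's start site, cover was higher at 3 members and 1 MYOD peak was in shSKP2 alone. With a reciprocal overlap of 50%, 6 H3K27ac peaks were kept and 12 were in shSKP2 alone. Without scaling, an alternative chosen after seeing the data, the median MYOD pileup ratio was 1.11 in place of 0.847. The cause of these changes was not tested beyond the peaks, positions and bases that each setting leaves out. Member H3K27ac peaks had 15 to 120 fragments at the summit, so single ratios are imprecise, and a gene without a peak may be bound below the threshold.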
